A study of Mus musculus with 16 samples.

Results

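The embryos described here stood at the opposite ends of the KAT6 dose in this study: 4 Kat6a+/+Tg(Kat6b) embryos, which kept both Kat6a alleles and carried a Kat6b transgene (excess), and 4 Kat6a-/-Kat6b+/+ embryos, which were homozygous for a Kat6a null allele and carried no transgene (loss). They were chosen by their genotype labels, 8 of 16 whole mouse embryos at embryonic day 9.5 whose RNA was sequenced. The other 8 were 4 wild-type Kat6a+/+Kat6b+/+ embryos and 4 Kat6a-/-Tg(Kat6b) embryos, which combined the null allele with the transgene. The mice were FVB x BALB/c hybrids. The transgene was a bacterial artificial chromosome holding Kat6b with its flanks in several copies at 1 insertion, so that all Tg(Kat6b) embryos stood for 1 transgenic allele, and the Kat6a null allele lacked internal exons of the gene. Each genotype had 2 female and 2 male embryos. The loss embryos were 2 females of litter 801 and 2 males of litter 803, and the excess embryos were 3 of litter 2597 and 1 of litter 2598. No litter held both extremes. They were linked through the wild-type embryos, 1 from each of these 4 litters, of which the 2 from litters 801 and 803 were male and the 2 from litters 2597 and 2598 were female, so that litter pair and sex could not be told apart in wild type.

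KAT6A (MOZ) and KAT6B (MORF, QKF) are closely related histone acetyltransferases of the MYST family. Each works in a complex with a BRPF scaffold protein, an ING protein and MEAF6, and acetylates histone H3 at active genes. In mouse embryos KAT6A is known for sustaining Hox gene expression and segment identity and for activating Tbx1 and Dlx5 in the heart and face, and KAT6B for its role in the developing cerebral cortex. The comparison of the extremes asks which genes differ when the total supply of these enzymes is highest and lowest, and where wild type lies between.

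The gene counts summed to 16943010 to 38601376 in the loss embryos, 22866009 to 24029187 in the excess embryos and 14407277 to 23224367 in wild type. Levels are given as CPM, counts relative to TMM-scaled library size, in the order of replicates 1 to 4, and differences as the fitted log2 difference excess minus loss, with its standard error (SE) and edgeR false discovery rate (FDR, called under 0.05). Excess replicate 1 stood apart among the excess embryos. Its 696 long, well expressed genes lay at a median of -0.27 on the log2 scale from the mean of the other excess embryos. The other 15 embryos, each set against the rest of its own genotype, lay at -0.10 to 0.12. This measure does not compare genotypes. In loss replicates 1 and 2, both of litter 801, the most abundant gene was Gm26917 at 1.16% and 1.09% of counts, whereas it was Eef1a1 in the other 14 embryos. In whole embryos fewer cells of a type and less RNA per cell cannot be told apart.

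Kat6b, on chromosome 14 (21531502 to 21722546, GRCm39), checked the transgene. It was at 48.6, 46.5, 51 and 50.4 CPM in the loss embryos, 47.1, 42.6, 46.9 and 48.2 in wild type and 155, 198, 188 and 227 in the excess embryos. The excess embryos lay far above both other groups, with no overlap, at 3.81 times the loss level (log2 difference 1.93, SE 0.0719, FDR 1.45e-09). The two-sided exact permutation test of 4 against 4 gave p = 0.0286, the smallest this design allows. Kat6a could not check the null allele, since the gene's counts include exons that the allele keeps: it was at 190, 189, 213 and 218 CPM in the loss embryos and 138, 189, 192 and 196 in the excess embryos (log2 difference -0.23, SE 0.0791, FDR 0.0854), and excess replicate 1 was the low value. Of 22 other genes tested within 1 Mb of Kat6b, 1 was called, the neighbouring dual specificity phosphatase gene Dusp29 at 0.147 ± 0.17 CPM in the loss and 1.35 ± 0.297 in the excess embryos (SD, n = 4).

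Of 15679 genes tested, 1984 (12.7%) were called between the extremes, 856 (5.46%) higher and 1128 (7.19%) lower in the excess embryos. Most differences were small: the median absolute log2 difference of the called genes was 0.30, and 160 of them (8.06%) differed more than 2-fold, 48 higher and 112 lower. The same fit called 295 genes (1.88%) between loss and wild type and 22 (0.14%) between excess and wild type. In 1496 of the called genes the 4 and 4 embryos did not overlap, against 15.8% of all tested genes. The count fell to 1249 without loss replicate 3.

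The litters set the main limit on this count. With litter as a block, so that each extreme was compared only with its wild-type littermates, 8 genes of 15533 passed (0.0515%): Kat6b, Skida1, Ms4a6c, Hoxb9, Hoxb3, Scg2, Dlx6os1 and Hoxb5os, of which Ms4a6c, Scg2 and Hoxb5os were chosen after their values were seen. Ms4a6c and Scg2 had few reads, at 0, 0, 0.402 and 0.137 and 0.131, 0.0552, 0.759 and 0.755 CPM in wild type. Their litter-linked differences of -9.91 and -4.34, beside pooled ones of -4.29 and -1.88, rest on these. Of the 1984 called genes, 589 (29.7%) had an unadjusted p under 0.05 in that edgeR fit, against 6.77% of all genes. The fit reuses the embryos that gave the calls, so a larger share among called genes is built in and carries no test of them. Over the 1980 called genes it tested, the littermate-linked difference had a median of 0.86 times the pooled one. It pointed the opposite way in 81 called genes. Litter-linked values are given below for the genes furthest apart, for the largest graded stepwise genes and for the named genes whose direction they turned.

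**Figure D1:**
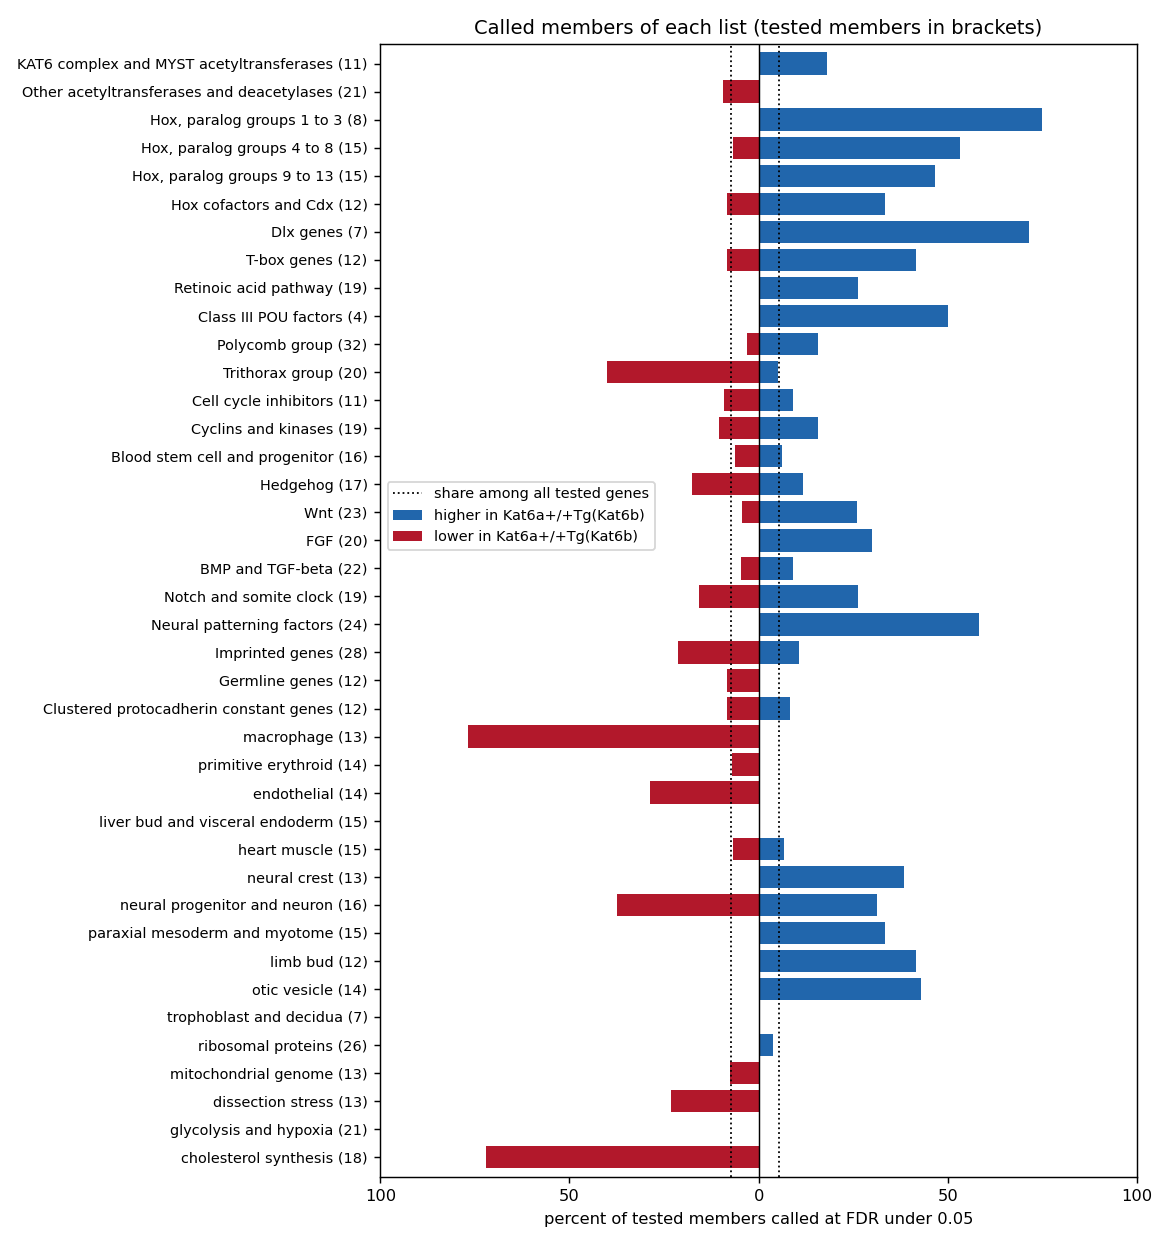
Percent of tested members called at FDR under 0.05 in each of 24 gene lists and 16 marker lists (tested members in brackets), to the right for members higher and to the left for members lower in Kat6a+/+Tg(Kat6b) than in Kat6a-/-Kat6b+/+ embryos. Dotted lines mark the shares among all tested genes, 5.46% higher and 7.19% lower: Hox, Dlx and neural patterning lists reach far to the right, macrophage and cholesterol lists far to the left.

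Wild type lay between the extremes in 1793 of the called genes (90.4%), against 47.9% of all tested genes. Its position was measured from 0 at the loss level to 1 at the excess level on the log2 scale. It fell in the graded range of 0.25 to 0.75 in 1218 called genes (61.4%), nearer loss in 279 (14.1%) and nearer excess in 296 (14.9%), with a median of 0.52. Among genes higher in the excess embryos the median was 0.61, and among those lower it was 0.44. At the median, wild type stood closer to the excess embryos in genes higher with dose and closer to the loss embryos in genes lower with dose. Since calls need a difference between the extremes and the position uses the same embryos, these shares describe the called genes and carry no test. Genes called lower were also longer, at a median of 5920 bases against 2982 in genes called higher. The position was not measured without excess replicate 1, whose long genes were low.

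**Figure D2:**
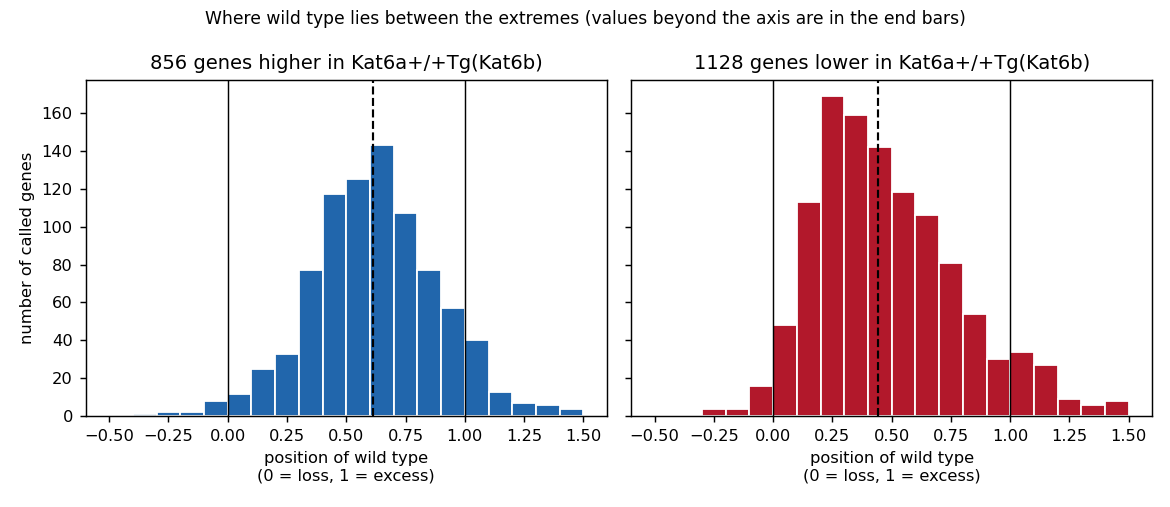
Number of called genes by the position of wild type between Kat6a-/-Kat6b+/+ (0) and Kat6a+/+Tg(Kat6b) (1), for genes higher (left) and lower (right) in Kat6a+/+Tg(Kat6b). Dashed lines mark the medians, 0.61 and 0.44, and values beyond the axis are gathered in the end bars.

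In 44 genes (0.281% of those tested) all 12 embryos were ordered loss, wild type and excess with no overlap between neighbours, 19 rising (0.121%) and 25 falling (0.159%) with dose, and 43 of the 44 were called. Among the rising genes were transcription factors of the body axis and head, namely Hoxb3, Hoxb9, Hoxc4, Hoxd4, Hoxa10, Tbx1, Six3, Otx1 and Irx3. The 6 with the largest differences and a graded wild-type position were Hoxd3os1, Ccdc182, Snord87, Foxl2os, Hoxd4 and Tbx1. Hoxd4, which patterns the neck vertebrae and hindbrain, was at 38.7, 39.8, 34 and 36.2 CPM in the loss embryos, 47.9, 54.6, 65 and 62.4 in wild type and 65.3, 73.3, 76.5 and 68.9 in the excess embryos. It rose in both steps, by 1.87 times in all (log2 difference 0.90, SE 0.0618, FDR 1.19e-08). The wild-type embryos of litters 801 and 803, at 47.9 and 54.6 CPM, lay below those of litters 2597 and 2598, and the litter-linked difference was 0.60. Tbx1, the T-box factor of the pharyngeal arches and outflow tract, went from 15, 12.3, 12.8 and 11.8 CPM over 19.4, 19.9, 20.1 and 20.9 to 25.1, 24.4, 22.2 and 21.6 (log2 difference 0.88, SE 0.0757, FDR 2.54e-07). Foxl2os, transcribed from the strand opposite to the start of the eyelid and ovary factor Foxl2, was at 4.26, 3.67, 2.6 and 3.47 CPM with loss, 5.7, 5.14, 6.07 and 5.49 in wild type and 6.86, 7.97, 8.74 and 7.73 with excess (log2 difference 1.14, SE 0.129, FDR 1.02e-05).

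Many of the falling genes are over 8000 bases long, such as Frem2 (12348), Fmn1 (14909) and Plec (17515). Calls of lower genes climbed with length, as given below, so their order cannot be told apart from that trend. Ccdc182, a falling coiled-coil gene of 1219 bases on chromosome 11 (88184884 to 88186087), went from 4.09, 4.22, 3.72 and 3.3 CPM over 3.22, 2.26, 1.96 and 2.33 to 1.28, 1.45, 1.28 and 1.75 (log2 difference -1.43, SE 0.193, FDR 8.55e-05). Of the rising genes, the low-abundance Hoxd3os1 had 0.214 ± 0.055 CPM with loss, 0.568 ± 0.143 in wild type and 1.15 ± 0.3 with excess, and the small nucleolar RNA Snord87 0.347 ± 0.0456, 0.563 ± 0.0791 and 0.949 ± 0.0626 (SD, n = 4). Litter-linked differences were -0.98 in Ccdc182, 2.41 in Hoxd3os1, 1.18 in Snord87, 1.04 in Foxl2os and 0.78 in Tbx1. The pooled ones were -1.43, 2.24, 1.42, 1.14 and 0.88. None of these genes passed with litter as a block. In the Kat6a-/-Tg(Kat6b) embryos, where the transgene met the null allele, Hoxd4 was at 56.1, 53.7, 56.3 and 56.4 CPM and Tbx1 at 15.7, 16.6, 16.2 and 18.9. Both lay between loss and excess there, Hoxd4 at the level of wild type and Tbx1 below all 4 wild-type embryos.

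**Figure D3:**
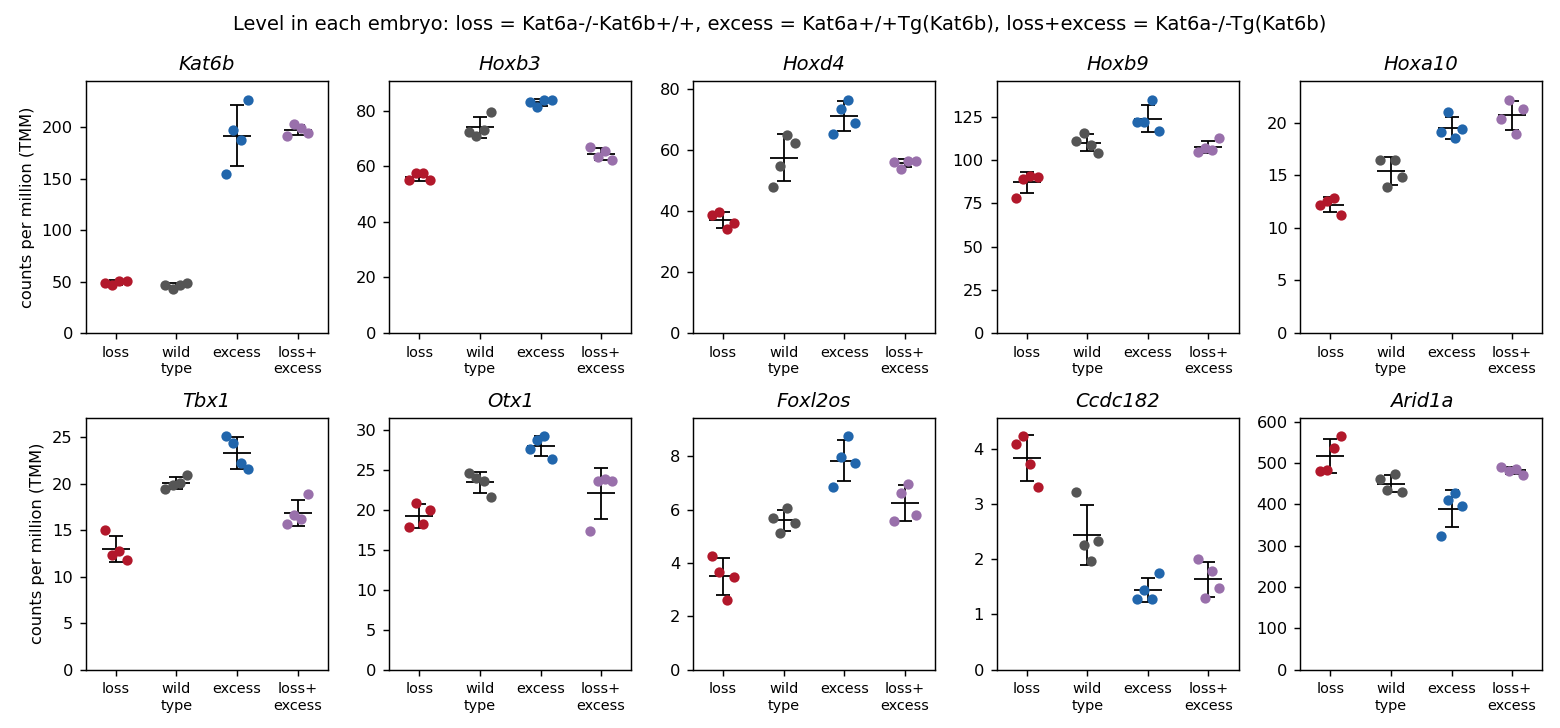
TMM-scaled CPM of Kat6b and 9 genes in every embryo, by genotype (points, 4 embryos each; bars, mean ± SD). The 9 genes other than Kat6b are ordered loss, wild type and excess with no overlap, for example Hoxd4 with 34 to 39.8, 47.9 to 65 and 65.3 to 76.5.

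To show what lies before the start of such genes, the 250 bases upstream of the RefSeq start (GRCm38.p6, gene strand) are printed for Hoxd4 and Foxl2os, which rose in both steps, for Dlx1 and Sp9, among the 12 largest rises, and for Mrc1 and Cx3cr1, among the 12 largest falls. Capitals mark CG dinucleotides.
Hoxd4, chr2:74721728-74721977, plus strand: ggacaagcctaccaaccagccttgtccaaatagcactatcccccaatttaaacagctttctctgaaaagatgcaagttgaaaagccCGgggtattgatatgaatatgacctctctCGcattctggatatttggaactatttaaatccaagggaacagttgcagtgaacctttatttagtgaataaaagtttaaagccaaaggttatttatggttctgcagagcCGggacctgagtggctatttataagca
Foxl2os, chr9:98955311-98955560, minus strand: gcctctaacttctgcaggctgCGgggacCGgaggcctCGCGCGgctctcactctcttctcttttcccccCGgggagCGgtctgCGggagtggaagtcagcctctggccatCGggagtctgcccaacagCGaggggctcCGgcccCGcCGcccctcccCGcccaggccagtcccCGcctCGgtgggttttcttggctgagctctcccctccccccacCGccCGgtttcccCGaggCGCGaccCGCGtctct
Dlx1, chr2:71529195-71529444, plus strand: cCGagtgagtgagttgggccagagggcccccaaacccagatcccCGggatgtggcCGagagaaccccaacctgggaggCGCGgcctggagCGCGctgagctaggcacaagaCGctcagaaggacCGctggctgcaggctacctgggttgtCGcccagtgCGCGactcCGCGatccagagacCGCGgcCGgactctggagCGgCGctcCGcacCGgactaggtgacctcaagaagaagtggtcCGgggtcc
Sp9, chr2:73271676-73271925, plus strand: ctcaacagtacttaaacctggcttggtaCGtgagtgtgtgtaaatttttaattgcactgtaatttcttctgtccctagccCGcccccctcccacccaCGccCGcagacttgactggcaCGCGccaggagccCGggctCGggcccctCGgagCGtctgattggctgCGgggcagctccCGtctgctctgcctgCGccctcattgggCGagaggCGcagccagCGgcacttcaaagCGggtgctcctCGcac
Mrc1, chr2:14229164-14229413, plus strand: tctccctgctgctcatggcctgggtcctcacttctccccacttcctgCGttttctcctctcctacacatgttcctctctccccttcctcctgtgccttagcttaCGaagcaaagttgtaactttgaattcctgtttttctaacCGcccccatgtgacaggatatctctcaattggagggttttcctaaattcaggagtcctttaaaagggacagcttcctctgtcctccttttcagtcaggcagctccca
Cx3cr1, chr9:120068297-120068546, minus strand: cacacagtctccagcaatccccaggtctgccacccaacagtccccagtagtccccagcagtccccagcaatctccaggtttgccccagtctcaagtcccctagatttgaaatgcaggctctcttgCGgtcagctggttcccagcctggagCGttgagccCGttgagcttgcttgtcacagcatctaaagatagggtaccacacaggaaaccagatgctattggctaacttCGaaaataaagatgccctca

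The windows of Foxl2os, Dlx1 and Sp9 held 23, 22 and 18 CG dinucleotides, and those of Hoxd4, Mrc1 and Cx3cr1 held 3, 3 and 4. Over all genes the contrast was slight: the median was 17 in 645 of the genes called higher that had an entry, 15 in 847 called lower and 15 in 12228 of all tested. The 10 macrophage markers with an entry had a median of 4. TATAAA, searched on both strands, stood in 8.37% of the windows of genes called higher, 7.67% of those called lower and 6.67% of all.

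The Hox genes set segment identity along the body axis. Of 38 tested, 21 (55.3%) were called higher and 1 lower in the excess embryos, with a median log2 difference of 0.33, and 37 of 38 had a positive difference. The median over all tested genes was zero to 2 decimals. Side by side, the median was -0.23 for loss against wild type and 0.18 for excess against wild type, comparisons that share the wild-type embryos. Between loss and wild type 9 Hox genes were called, and between excess and wild type 0 were called by edgeR, with 18 at an unadjusted p under 0.05. With litter as a block the median was 0.43, and 18 of the genes had an unadjusted p under 0.05. By cluster, 5 of 11 Hoxa, 7 of 9 Hoxb, 3 of 9 Hoxc and 6 of 9 Hoxd genes were called higher.

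Paralog groups 1 to 3, expressed in the hindbrain and its neural crest, had 6 of 8 members higher. Hoxb1, the marker of rhombomere 4, was at 15.2, 13.8, 10.9 and 12.1 CPM with loss, 20.4, 25.1, 17.6 and 17.8 in wild type and 25.4, 26.4, 21 and 21.9 with excess (log2 difference 0.95, SE 0.0718, FDR 2.41e-08). The loss embryos lay below all wild-type and excess embryos, while wild type and excess overlapped. Hoxb3 was at 54.9, 57.5, 57.4 and 55 CPM with loss, 72.4, 70.9, 73 and 79.6 in wild type and 83.2, 81.1, 83.7 and 83.9 with excess (log2 difference 0.55, SE 0.0387, FDR 1.34e-08). These groups did not overlap, and the litter-linked difference of 0.49 passed as well (FDR 0.0415). Annotated exons on the other strand cover 51.5% of the Hoxb3 exon bases, and reads from the 2 strands could not be told apart. Hoxd3 rose by 0.66 on the log2 scale.

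Groups 4 to 8, which pattern the neck and thorax, had 8 of 15 members higher and Hoxa7 lower. Besides Hoxd4, the smallest FDRs were those of Hoxa6 (log2 difference 0.78, SE 0.0927, FDR 1.89e-05), Hoxc4 (log2 difference 0.50, SE 0.0599, FDR 1.89e-05) and Hoxa5 (log2 difference 0.54, SE 0.0748, FDR 9.55e-05). Hoxa7, named after its value was seen, was at 19.3, 22.7, 23.2 and 20.5 CPM with loss and 17.7, 19.3, 17.9 and 16.8 with excess (log2 difference -0.25, SE 0.0792, FDR 0.039). The groups overlapped, and the call was lost in 8 of the 16 fits that left out 1 embryo.

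Groups 9 to 13, which pattern the lumbar to tail levels and the limbs, had 7 of 15 members higher and none lower. Hoxb9 was at 78.4, 89.1, 91 and 90.5 CPM with loss, 111, 116, 109 and 104 in wild type and 122, 122, 135 and 117 with excess (log2 difference 0.51, SE 0.0476, FDR 6.97e-07). The 12 embryos were in order without overlap, and the litter-linked difference was 0.57 (FDR 0.0415). Hoxa10 rose from 12.2 ± 0.717 CPM over 15.4 ± 1.31 to 19.5 ± 1.02 (SD, n = 4), and was at 20.7 ± 1.42 in the Kat6a-/-Tg(Kat6b) embryos. Hoxd10 and Hoxd11 had log2 differences of 0.60 and 0.53. Hoxb5os, an antisense transcript of the Hoxb cluster, was at 11.7, 10.6, 7.56 and 11.4 CPM with loss and 20.4, 19.9, 20.1 and 19.1 with excess (log2 difference 0.99, SE 0.0874, FDR 3.24e-07).

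The caudal factors Cdx2 and Cdx4, which act upstream of trunk Hox genes, were higher in the excess embryos with large spread. Cdx2 was at 9.68, 7.12, 4.02 and 5.52 CPM with loss and 11.9, 13.2, 8.78 and 9.47 with excess (log2 difference 0.93, SE 0.102, FDR 7.1e-06), and Cdx4 at 7.3, 4.56, 1.83 and 2.85 and 9.13, 6.44, 4.86 and 5.37 (log2 difference 0.97, SE 0.174, FDR 0.00144). In both genes the groups overlapped, through loss replicate 1. Of the Hox cofactors, Pknox1 (0.26) and Meis1 (0.12) were higher. The call of Meis1 was lost in 7 of 16 fits that left out 1 embryo. In all, 4 of the 12 members of this list were higher and 1 lower, a called share of 41.7% against 12.7% of all genes.

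Of 12 T-box genes tested, 5 were higher and 1 lower, a called share of 50% against 12.7% of all genes. Their median was -0.15 for loss against wild type and -0.00 for excess against wild type. Besides Tbx1, the tail bud factor T (Brachyury) was at 18.4, 16.6, 9.93 and 12.5 CPM with loss, 12.9, 20.7, 12.3 and 8.03 in wild type and 21.5, 18.8, 16.7 and 17.3 with excess (log2 difference 0.50, SE 0.11, FDR 0.0062). Wild type spread over the range of the loss embryos, and the fitted difference lay between excess and the other 2 groups, with a wild-type position of -0.17. Tbx15, Tbx4 and Tbx5, factors of limb and skeleton, had log2 differences of 0.78, 0.64 and 0.53. Tbx4 and Tbx5 lost their call in 11 and 6 of the 16 fits without 1 embryo, and the count of higher members was 3 without any of loss replicates 1, 2 and 4 or excess replicates 1, 2 and 4. Mga, a T-box repressor, was lower (log2 difference -0.49, SE 0.123, FDR 0.0268), in a call that was lost without loss replicate 3 or 4 or excess replicate 1.

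Retinoic acid is the signal that sets the anterior limits of many Hox genes. Of 19 genes of its pathway, 5 were higher and none lower: the synthetic enzyme Aldh1a2, the degrading enzymes Cyp26a1, Cyp26b1 and Cyp26c1, and the receptor Rarg. Cyp26b1 was at 27.4, 25, 22.5 and 25.9 CPM with loss, 41.4, 40.7, 39.4 and 41.9 in wild type and 38.7, 41, 45 and 36.2 with excess (log2 difference 0.67, SE 0.0666, FDR 1.81e-06). The step lay between loss and wild type, and wild type overlapped excess. Cyp26c1 was at 12.2 ± 2.63 CPM with loss, 17.1 ± 2.98 in wild type and 20.2 ± 1.42 with excess (log2 difference 0.82, SE 0.101, FDR 3.15e-05). Aldh1a2 had 61.6 ± 2.58, 74.4 ± 3.55 and 74.4 ± 2.08 CPM (SD, n = 4), with equal means in wild type and excess. The called share of the list was 26.3%, against 12.7% of all genes. The list had 3 genes called higher without loss replicate 2 or 4.

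Dlx genes, homeobox factors of the branchial arches and the forebrain, had 5 of 7 members higher and none lower. The non-coding Dlx6os1 (Evf2) was at 0.996, 1.43, 1.12 and 1.16 CPM with loss, 4.05, 3.98, 5 and 6.32 in wild type and 5.16, 5.42, 6.35 and 5.28 with excess (log2 difference 2.14, SE 0.159, FDR 2.16e-08). Loss lay far below, with wild type close to excess (position 0.92), and the litter-linked difference of 1.74 passed (FDR 0.0415). Dlx1 was at 3.65, 3.18, 4.79 and 2.9 CPM with loss and 8.1, 9, 10.3 and 8.6 with excess (log2 difference 1.26, SE 0.135, FDR 6.05e-06). Its antisense transcript Dlx1as, which overlaps it, moved with it (log2 difference 1.51, SE 0.282, FDR 0.00154), and annotated exons on the other strand cover 60.2% of the Dlx1 exon bases. Dlx2, Dlx5 and Dlx3 rose by 0.51, 0.63 and 0.37 on the log2 scale. The call of Dlx3 was lost without loss replicate 3.

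Sp9, a zinc finger factor of the limb ridge and the ventral forebrain, was at 2.27, 1.17, 1.36 and 1.78 CPM with loss, 2.92, 2.76, 4.06 and 4.05 in wild type and 4.3, 3.5, 4.86 and 3.36 with excess (log2 difference 1.29, SE 0.2, FDR 0.000309). Of the 4 class III POU factors, Pou3f3 (log2 difference 0.49, SE 0.0443, FDR 4.45e-07) and Pou3f2 (log2 difference 0.22, SE 0.0478, FDR 0.0044) were higher, and the list had 1 called gene without loss replicate 3. Pou3f3 was at 53.7, 57, 66.1 and 63 CPM with loss, 82.7, 72.5, 89.2 and 92.6 in wild type and 77, 80.4, 97.5 and 97.4 with excess. Wild type and excess overlapped, and the loss embryos lay below both.

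Of 24 neural patterning factors, 14 (58.3%) were higher and none lower, with a median log2 difference of 0.24. Six3, which specifies the anterior forebrain and eye, was at 12.6, 12.4, 12.2 and 12.3 CPM with loss, 15, 15.2, 16.7 and 15.5 in wild type and 17.1, 18.3, 20.5 and 16.8 with excess (log2 difference 0.55, SE 0.0762, FDR 9.97e-05). Otx1, a forebrain and midbrain factor, was at 17.8, 20.9, 18.2 and 20, 24.6, 24, 23.6 and 21.6 and 27.6, 28.7, 29.2 and 26.4 CPM (log2 difference 0.55, SE 0.0851, FDR 0.000305). In both genes the 3 genotypes were in order without overlap. The Iroquois factors Irx1 and Irx3 rose by 0.45 and 0.24 on the log2 scale. Without loss replicate 4 the list had 9 called genes.

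Marker lists of tissues of the embryo moved in parts, where 5.46% of all tested genes were called higher. Of 14 otic vesicle markers 6 were higher, among them the ear factors Pax2 (0.55) and Lmx1a (0.45). Of 13 neural crest markers 5 were higher, led by Tfap2a (log2 difference 0.45, SE 0.0738, FDR 0.000479) and Foxd3 (log2 difference 0.57, SE 0.112, FDR 0.00225), which specify the crest, and Sox9 (0.33). Of 15 paraxial mesoderm markers 5 were higher, with Foxc2 (0.37), Pax3 (0.35) and Uncx (0.42), factors of the somites. Crest and paraxial lists had 3 called genes each without loss replicate 3. Of 12 limb bud markers 5 were higher, led by Lhx2 (log2 difference 0.35, SE 0.0522, FDR 0.000258) and Pitx1 (log2 difference 0.66, SE 0.146, FDR 0.0119), but this count ran from 2 to 8 when 1 embryo was left out. None of these lists had a member called lower. Median differences of the lists from wild type were -0.23 with loss and 0.08 with excess in the otic list, and -0.10 and 0.03 in the crest list. They were -0.06 and 0.09 in the paraxial list and -0.29 and -0.00 in the limb bud list. Lhx2 lay at -0.34 with loss and 0.01 with excess from wild type.

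The neural list divided. Sox2 (log2 difference 0.21, SE 0.036, FDR 0.000818) and Sox1 (log2 difference 0.20, SE 0.0456, FDR 0.00702), factors of neural progenitors, were higher with excess, as were Pax6 and Neurog2, whereas the intermediate filament gene Nes (log2 difference -0.26, SE 0.0404, FDR 0.000274) and the neuronal genes Dcx (log2 difference -0.68, SE 0.103, FDR 0.000701), Tubb3, Elavl3, Elavl4 and Stmn2 were lower. Sox2 was at 158, 156, 155 and 165 CPM with loss and 179, 175, 195 and 186 with excess, with no overlap, and exons annotated on the other strand cover 59.9% of its exon bases. Dcx, which binds microtubules in young neurons, was at 28.8, 32.2, 44.9 and 42.2 and 17.2, 24, 34.1 and 28.4 CPM, and the groups overlapped. Called counts of 5 higher and 6 lower fell to 2 higher without loss replicate 2 or 3, and to 2 lower without excess replicate 1 or wild-type replicate 2 or 4. The litter-linked median of the list was -0.12 beside the pooled 0.10.

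Among chromatin regulators, 2 of 11 genes of the MYST complexes were called (18.2%), Kat6b and Ing5. Ing5, the reader of methylated histone H3 in the complex (log2 difference 0.18, SE 0.0461, FDR 0.0144), was not called without loss replicate 2 or 3. The litter-linked difference of Ing5 was -0.06, in the opposite direction. Of 32 Polycomb genes, 5 were higher and Bmi1 was lower (log2 difference -0.16, SE 0.0406, FDR 0.0128). The share called was 18.8%, against 12.7% of all genes. Skida1, a SKI and DACH domain gene, was at 45.4, 48.5, 47.2 and 46.8 CPM with loss, 71.6, 73.3, 73 and 67 in wild type and 68.7, 74.4, 76.6 and 78.9 with excess (log2 difference 0.67, SE 0.0482, FDR 1.56e-08). Loss lay below all other embryos, and the litter-linked difference was 0.72 (FDR 0.0201). Pcgf2 was higher by 0.22 on the log2 scale. The count of higher members was 2 without excess replicate 1 and 3 without loss replicate 2 or 4, and Bmi1 was not called without loss replicate 4.

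Of 20 Trithorax genes, the activators that oppose Polycomb, 8 (40%) were lower with excess, and 1, Smarcc2, was higher, in a call lost without loss replicate 1 or 3 or excess replicate 2. Kmt2d, an H3K4 methyltransferase, was at 131, 132, 172 and 183 CPM with loss, 148, 127, 129 and 102 in wild type and 74.1, 91.2, 93 and 92.7 with excess (log2 difference -0.81, SE 0.126, FDR 0.00269). The SWI/SNF subunit Arid1a was at 481, 483, 536 and 564, 462, 435, 473 and 430 and 324, 411, 426 and 395 CPM (log2 difference -0.43, SE 0.0685, FDR 0.00188), ordered without overlap, and its paralog Arid1b likewise fell (log2 difference -0.31, SE 0.0503, FDR 0.000589). The acetyltransferases Crebbp (log2 difference -0.49, SE 0.0997, FDR 0.00745) and Ep300 (log2 difference -0.36, SE 0.101, FDR 0.0416) were lower as well, the latter in a call that 13 of 16 fits without 1 embryo lost. The Trithorax count was 4 without loss replicate 3 or 4 and 5 without excess replicate 3.

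These genes are long, and length moved with the comparison. The median exon length was 5920 bases in genes called lower, 2982 in genes called higher and 3116 in all. Of 989 genes over 8000 bases, 35.7% were called lower and 1.62% higher, against 4.23% and 3.75% of 2456 genes under 1500 bases. Without excess replicate 1 the shares of long genes were 21.9% and 1.82%. With offsets that remove each embryo's trend with length, 2278 genes were called, 1382 higher and 896 lower, so that the share called higher went from 43.1% to 60.7%. With total counts in place of TMM it was 56.3%, 1211 genes higher and 939 lower. With the length offsets the log2 difference of Kmt2d was -0.38 and that of Arid1a -0.21, both still called, whereas those of Arid1b (-0.06) and Smarca4 (-0.07) were not. Hox and Dlx genes are of middle length, and their counts of called members were the same with the offsets.

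**Figure D4:**
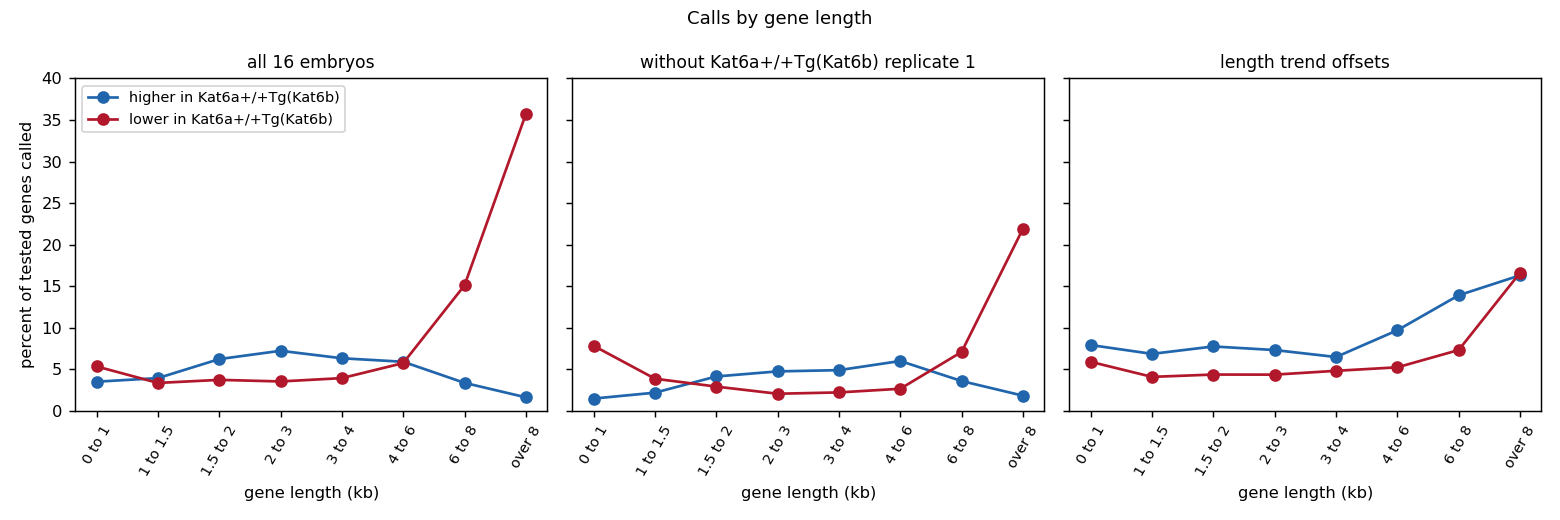
Percent of tested genes called higher (blue) and lower (red) in Kat6a+/+Tg(Kat6b) than in Kat6a-/-Kat6b+/+ embryos, by gene length in kb, over all 16 embryos, without Kat6a+/+Tg(Kat6b) replicate 1, and with offsets for each embryo's length trend. Calls of lower genes climb to 35.7% above 8000 bases, 21.9% without that embryo and 16.6% with the offsets.

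The shares of called genes were 30.4% in the Wnt list, 30% in the FGF list, 42.1% in the Notch list, 29.4% in the Hedgehog list and 13.6% in the BMP and TGF-beta list, against 12.7% of all genes. Of 23 Wnt genes 6 were higher and Notum was lower, the latter not without loss replicate 2 or 3 or excess replicate 1. The ligand Wnt5a, which guides axis elongation, was at 66.2, 68.9, 64.9 and 64.9 CPM with loss, 75.4, 79.8, 89 and 85.7 in wild type and 85.1, 96.5, 94.5 and 85.2 with excess (log2 difference 0.45, SE 0.0529, FDR 1.89e-05), without overlap of the extremes. The Wnt inhibitors Sfrp2 and Sfrp1 and the nuclear factor Lef1 were higher by 0.28, 0.21 and 0.28 on the log2 scale. From wild type, these 3 genes lay at -0.27, -0.23 and -0.18 with loss and at 0.01, -0.02 and 0.11 with excess. Of 20 FGF genes 6 were higher, with the feedback inhibitors Spry2 (0.25) and Spry1 (0.22), the receptor Fgfr3 (0.21) and the ligand Fgf9 (0.62), but 3 were called without loss replicate 3 or excess replicate 3. Fgfr3 lay at -0.27 with loss and -0.06 with excess from wild type. In the Notch list the targets Hes1 (0.36) and Hes5 (0.37), the modifier Lfng (0.30), Dll1 and Nrarp were higher and the receptors Notch1, Notch2 (-0.40) and Notch3 lower, 5 and 3 of 19. The litter-linked difference of Hes5 was -0.03. The litter-linked median of the Notch list was -0.03 beside the pooled 0.13, and 3 of its genes had an unadjusted p under 0.05 in that edgeR fit.

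In the Hedgehog list of 17, the ligand Shh (0.17) and the co-receptor Boc (0.26) were higher, while the receptor Ptch1 (-0.16), the transcription factor Gli3 (-0.28) and the inhibitor Hhip (-0.54) were lower. Shh lost its call in 6 of the 16 fits without 1 embryo and Ptch1 with the length offsets, and 1 gene was called higher without loss replicate 1 or 3 or excess replicate 1, 3 or 4. Of 22 BMP and TGF-beta genes, Msx2 (0.42) and Msx1 (0.22) were higher and Bmp5 (-0.27) was lower. The list had 1 higher gene without loss replicate 1, 3 or 4 or excess replicate 1, and Bmp5 was not called without loss replicate 4 or excess replicate 1. Among 19 cyclins and kinases, Ccna2 (0.13), Cdk2 (0.14) and E2f3 (0.16), which act at entry into and passage through S phase, were higher, and the G1 genes Ccnd2 (log2 difference -0.24, SE 0.0355, FDR 0.000187) and Cdk6 (log2 difference -0.49, SE 0.0796, FDR 0.000889) lower. Without excess replicate 2 there were 5 higher. Other genes of these phases in the list were not called, such as Ccnd1 (-0.00), Ccnd3 (-0.04), Cdk4 (0.02), Pcna (0.01) and Mcm2 (0.01). Of 11 cell cycle inhibitors 18.2% were called, against 12.7% of all genes. Trp53 was higher (0.15) and Cdkn1c lower (-0.14), the latter in a call lost without loss replicate 2 or 4, excess replicate 3 or wild-type replicate 2.

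Macrophage genes had the lowest median of all lists. Of 13 tested members of the marker list, 10 (76.9%) were lower with excess and none higher, with a median log2 difference of -1.68. Their median was 1.30 for loss against wild type and -0.13 for excess against wild type. Mrc1, the mannose receptor of early tissue macrophages, was at 3.71, 4.87, 8.51 and 6.76 CPM with loss, 2.79, 1.27, 3.48 and 1.37 in wild type and 1.36, 1.83, 1.57 and 1.22 with excess (log2 difference -2.05, SE 0.222, FDR 8.17e-06). The receptor gene Csf1r was at 1.38, 3.49, 4.37 and 3.49, 1.44, 0.939, 2.14 and 0.824 and 0.909, 1.11, 1.2 and 1.05 CPM (log2 difference -1.68, SE 0.254, FDR 0.000258), and the complement gene C1qb at 0.774, 1.07, 1.77 and 2.06, 0.261, 0.11, 0.848 and 0.343 and 0.165, 0.341, 0.247 and 0.262 CPM (log2 difference -2.73, SE 0.421, FDR 0.000298). In all 3 genes the extremes did not overlap. Wild type overlapped excess alone in Mrc1 and both extremes in Csf1r and C1qb. Ptprc, the pan-leukocyte gene, had a log2 difference of -1.93, and the myeloid master factor Spi1 one of -1.55 at 0.95 ± 0.138 CPM with loss and 0.394 ± 0.218 with excess (SD, n = 4).

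The summed level of all 15 macrophage markers was 16 to 30.3 CPM, scaled by total counts, in the loss embryos, 7.9 to 16.1 in wild type and 9.2 to 12.4 in the excess embryos. No marker was at 0 in all embryos. The levels were low. The litter-linked median was -1.98, and with litter as a block 0 of the 13 passed in edgeR and 7 had an unadjusted p under 0.05. When any 1 embryo was left out, 8 to 10 genes were called. Of 16 blood stem and progenitor genes 12.5% were called, beside 12.7% of all genes. Kit, the stem cell factor receptor, was higher with excess than with loss (log2 difference 0.31, SE 0.0584, FDR 0.00154) and Spi1 was the only one lower. From wild type, Kit lay at -0.26 with loss and 0.05 with excess. Of 14 endothelial markers 4 (28.6%) were lower, by small differences: Cdh5 (-0.19), Tie1 (-0.24), Cldn5 (-0.31) and Kdr (-0.18). Of all tested genes 7.19% were lower. Of 14 primitive erythroid markers only Tfrc was called (-0.17), in a call that 13 of 16 fits without 1 embryo lost, and its litter-linked difference was 0.00.

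In other groups the wild-type embryos divided by litter. Of 18 cholesterol synthesis genes 13 (72.2%) were lower with excess, with a median log2 difference of -0.49. Lss, the enzyme that closes the sterol ring, was at 110, 96.5, 88.6 and 85.6 CPM with loss, 105, 87.2, 58 and 59 in wild type and 54.9, 57.3, 58.2 and 56.1 with excess (log2 difference -0.70, SE 0.157, FDR 0.0159). The wild-type embryos of litters 801 and 803 lay at the loss level and those of litters 2597 and 2598 near the excess level. The litter-linked median of the list was 0.02, and 1 of its genes was called without excess replicate 1. The same held for the early response gene Fos, at 10.6, 13.3, 5.85 and 4.23, 10.5, 5.63, 1.52 and 1.92 and 3.1, 1.58, 1.28 and 2.49 CPM, with a litter-linked log2 difference of 0.35 beside the pooled -1.83. Egr1 (-0.50) and Jun (-0.14) were the other 2 of 13 dissection stress genes called lower. The litter-linked median of that list was 0.02 beside the pooled -0.16.

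Among the remaining lists, 3 imprinted genes were higher and 6 lower of 28, led by Igf2 (log2 difference 0.18, SE 0.0317, FDR 0.000818), Peg3 (log2 difference -0.40, SE 0.071, FDR 0.00397), Phlda2 (0.89) and the growth-restraining non-coding RNA H19 (log2 difference -0.23, SE 0.0514, FDR 0.0102). The called share of the imprinted list was 32.1%, against 12.7% of all genes. The list had 1 higher gene without excess replicate 1, and 3 lower genes without loss replicate 2, 3 or 4. Of 12 germline genes tested Cyct, the testis cytochrome c, was the only one called, at 0.111, 0.912, 1.18 and 0.592 CPM with loss, 0, 0, 0.0446 and 0 in wild type and 0.0413, 0.0426, 0.0412 and 0.0873 with excess (FDR 0.000317). These are few reads, since 3 of 4 wild-type embryos had none. The called share of the germline list was 8.33%, below that of all genes. Of 12 protocadherin constant genes 16.7% were called, against 12.7% of all genes. Pcdh8 (0.21) was higher and Pcdhgc3 (-0.21) lower, in calls that 6 and 10 of 16 fits without 1 embryo lost. Of 15 heart muscle markers the cardiac factor Nkx2-5 (0.42) was higher and Ttn (-1.19), of 107765 bases, lower, a called share of 13.3%. The higher call was lost without excess replicate 1 or 2, and the lower count ran from 0 without loss replicate 3 to 3 without loss replicate 1. The difference of Ttn was -0.15 with the length offsets. Of 15 liver bud and visceral endoderm genes 0 were called by edgeR and limma-voom and 1 by DESeq2, with 5 at an unadjusted p under 0.05 in edgeR, a median log2 difference of 0.65 and a litter-linked median of 1.36. Their summed level was 20.3 to 29 CPM in the loss embryos, 22.3 to 76.4 in wild type, 10.3 in excess replicate 3 and 37.1 to 67.2 in the other excess embryos, and without excess replicate 3 there were 5 called higher. In the trophoblast list edgeR called 0 of 7 genes, with 2 at an unadjusted p under 0.05, limma-voom 0 and DESeq2 1 in each direction. In the glycolysis list of 21 all 3 tools called 0, with 5 at an unadjusted p under 0.05 in edgeR, and 3 were called lower without wild-type replicate 2. By edgeR 1 each of 26 ribosomal protein genes (Rpl10, 0.22) and 13 mitochondrial genes (ATP8, -0.65) was, both not without excess replicate 1.

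The largest differences did not come from these lists alone. Of the 12 genes furthest higher, Kat6b, Dlx6os1, Dlx1as, Sp9 and Dlx1 have been described. The others were 1500004A13Rik, Aph1b, 5830417I10Rik, Dnm3os, B4galnt2, Spag8 and Rsad1. The overlapping non-coding genes 1500004A13Rik and 5830417I10Rik, on opposite strands of chromosome 3, were at 0.83, 0.808, 0.886 and 0.507 and 33.6, 29.7, 30.6 and 32.7 CPM with loss, 0.522, 4.09, 5.49 and 6.18 and 33.4, 76.9, 77.4 and 72.4 in wild type, and 4.96, 6.05, 13.2 and 6.94 and 64.6, 77.6, 118 and 70.4 with excess. Wild-type replicate 1 lay with the loss embryos in both, and the other 3 lay with the excess embryos or near them. Aph1b, a subunit of gamma-secretase, was at 3.2 ± 0.602 CPM with loss and 14.2 ± 3.11 with excess, and wild-type replicate 2 at 2.21 lay with loss (log2 difference 2.02, SE 0.54, FDR 0.0353). Its litter-linked difference was 0.70. In Dnm3os and Rsad1 the litter-linked differences were 0.25 and 0.36 beside pooled ones of 1.36 and 1.21, and in 1500004A13Rik and 5830417I10Rik 1.83 and 0.81 beside 3.25 and 1.36. They were 1.01 in Dlx1as, 0.85 in Dlx1, 0.75 in Sp9, 0.95 in Spag8 and 1.69 in B4galnt2, where the pooled ones were 1.51, 1.26, 1.29, 1.29 and 1.35.

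Of the 12 genes furthest lower, Cx3cr1, Mrc1, Rac2, Mpeg1 and Csf1r are genes of macrophages or other leukocytes. Cx3cr1, a chemokine receptor, was at 1.83, 2.58, 2.48 and 3.83 CPM with loss and 0.454, 0.981, 0.412 and 0.524 with excess (log2 difference -2.38, SE 0.422, FDR 0.00221). In these 5 genes the litter-linked difference was as large as the pooled one or larger, from -1.98 in Csf1r to -3.08 in Cx3cr1, but no call was kept in that fit (FDR 0.231 in Cx3cr1 to 0.668 in Mpeg1). The nuclear receptor gene Nr1h5 had the largest pooled difference (log2 difference -4.51, SE 0.611, FDR 0.00139), at 29.7, 37.8, 45.1 and 39.6 CPM with loss and 2.35, 2.3, 0.371 and 1.27 with excess. Its wild-type embryos were at 38.5, 44.1, 1.83 and 1.92 CPM, the first pair from the litters of the loss embryos and the second from those of the excess embryos, and the litter-linked difference was -0.17. Krt15, a keratin gene, did likewise, at 2.83, 2.82, 0.402 and 0.755 CPM in wild type, with a litter-linked difference of 0.25 beside the pooled -2.07. Ccdc60, Rpph1, Svopl and Rxfp1, the remaining genes, had litter-linked differences of -0.39, -0.32, -0.17 and -1.05 beside pooled ones of -1.77, -1.57, -1.54 and -1.51.

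**Figure D5:**
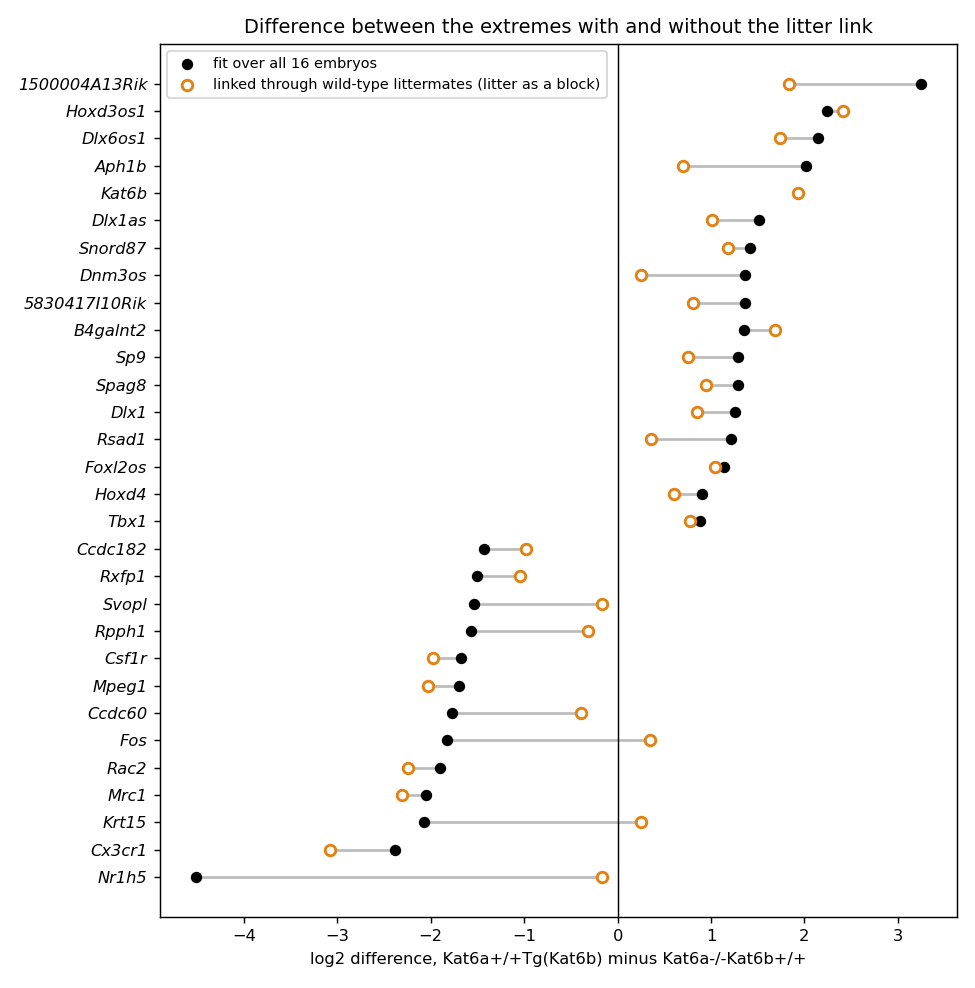
Log2 difference Kat6a+/+Tg(Kat6b) minus Kat6a-/-Kat6b+/+ of the 24 genes furthest apart and the 6 graded stepwise genes, from the fit over all 16 embryos (black) and with litter as a block (orange rings). Both values of Kat6b are 1.93 and the rings of the 5 leukocyte genes lie further from zero. Of the plotted genes only Kat6b and Dlx6os1 passed with the block. Nr1h5 goes from -4.51 to -0.17, and Krt15 and Fos change sign.

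Few genes could be shown to leave the straight line from loss over wild type to excess. Wild type departed from the midpoint of the extremes in 12 genes (0.0765%), 10 of them also called between the extremes. A missed threshold does not show that the other genes moved in equal steps. Kat6b lay below the midpoint in wild type, by -1.06 on the log2 scale (FDR 2e-06), with loss at 0.09 and excess at 2.02 from wild type. Dlx6os1 (0.89, FDR 0.00243), Skida1 (0.27, FDR 0.00423), Cyp26b1 (0.36, FDR 0.00587) and Pou3f3 (0.23, FDR 0.0103) lay above it, with loss far from wild type (log2 differences of -1.96, -0.60, -0.69 and -0.47) and excess close to it (0.18, 0.07, -0.02 and 0.02). Igf2 did so more weakly (0.15, FDR 0.0207).

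Of the 12, 4 lie within 20 Mb of Kat6a on chromosome 8: Nek3, Hgsnat, Smim19 and Kbtbd11. Nek3, a kinase gene, was at 5.75, 7.14, 5.79 and 6.12 CPM with loss, 15.3, 15.6, 15.2 and 13.5 in wild type and 12, 12.4, 11 and 10.1 with excess, and Hgsnat, a lysosomal acetyltransferase gene, at 35.5, 37.7, 39.2 and 35, 19.9, 23.3, 21.5 and 19.2 and 29.4, 29.7, 27.1 and 25.5 CPM. In both genes wild type lay outside the range of the extremes, and the Kat6a-/-Tg(Kat6b) embryos, at 7.1 ± 1.2 and 32.7 ± 3.15 CPM (SD, n = 4), lay nearer to the loss embryos. Among all 172 genes tested in that stretch, 20 (11.6%) were called between the extremes, 14 higher and 6 lower, close to the 12.7% of all genes, and they included the stepwise genes Tti2 and Tcim. Whether the differences between loss and wild type follow the null allele or its flanking chromosome cannot be told apart. Excess and wild type both kept the 2 normal Kat6a alleles, and excess lay at -0.37 in Nek3 and 0.43 in Hgsnat from wild type on the log2 scale. What sets these 2 groups apart was not tested.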

How the data were processed

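Whole E9.5 mouse embryos of 4 genotypes (4 each) were profiled by RNA sequencing of libraries made with an unstranded kit. The authors aligned paired reads to mm39 with Rsubread and deposited whole-number read counts per gene, 1 table per embryo with gene lengths; the submitters' processing notes name featureCounts. The strand setting of counting was not given in the sources used here, so reads of a gene and its antisense partner could not be told apart.

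Of 26411 genes, 15679 passed filterByExpr (minimum count 10) in edgeR 4.0.16 (R 4.3.3). Counts were TMM scaled and fitted over all 16 embryos by robust quasi-likelihood with genotype and 2 surrogate variables (sva 3.50.0, genotype protected). The study's methods name edgeR, limma, TMM and surrogate variables; the quasi-likelihood test, the robust option and the number of surrogate variables were chosen here. The contrast was Kat6a+/+Tg(Kat6b) minus Kat6a-/-Kat6b+/+, with Benjamini-Hochberg adjustment over all tested genes. The position of wild type and the stepwise order are descriptions. A position used the fitted differences, and the order used TMM-scaled CPM. Replicates differed beyond sampling noise (chi-square per degree of freedom 3.5 to 15.8), and each embryo was counted as 1 sample.

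The named genes were Kat6a and Kat6b; the 12 higher and 12 lower called genes that differed most, among those averaging 0 or more in log2 CPM whose embryos did not overlap; at most 4 called genes per list by FDR, or all where 5 or fewer were called; the 6 largest graded stepwise genes; and the 4 called genes with the smallest p of the departure from the midpoint. Other genes are said to be chosen after their values were seen, or are only listed. Some genes the rule selects are not reported here, but are included in the counts of their lists. The genotypes compared and the lists were chosen with earlier results of these data known. Positions are from GENCODE vM39 (GRCm39), matched by symbol for 25282 genes, and promoters from RefSeq (GRCm38.p6), matched by gene ID for 12228 of the tested genes, taking the first listed start.

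On simulated counts with 100 genes changed by 0.8 and 100 by 1.5 log2 between the extremes, the fit called 90 and 98. It made 9 false calls among 15336 unchanged genes. With litter as a block it called 72 and 92, with 13 false calls among 15237. The simulation held no litter effect, length trend or outlying embryo, so it cannot measure calls that come from these. Its differences were larger than the median of 0.30 in the called genes. Alternatives were limma-voom (limma 3.58.1), DESeq2 1.42.0, other scalings, filters, covariates and samples.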

Additional observations from a re-analysis of the deposited data

Results flagged for a closer look

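Each named gene was checked within the 4 loss and within the 4 excess embryos for 1 embryo far from the other 3 (gap over range above Dixon's 95% critical value). Of 310 such groups 15 were flagged, where chance flags about 1 in 20, and 3 of these concern excess replicate 1, the embryo with low long genes: Kat6a at 138 CPM against 189 to 196, Kmt2d at 74.1 against 91.2 to 93, and Pcdhgc3 at 89.6 against 113 to 116. In the other excess embryos these were Hoxc4 at 37.2 CPM in replicate 2 (others 36.1 to 36.3), Lmx1a at 14.9 in replicate 2 (others 15.9 to 16.1), Foxd3 at 10.3 in replicate 3 (others 8.12 to 8.31), Tbx5 at 10.2 in replicate 3 (others 19.2 to 20.6) and Cyct at 0.0873 in replicate 4 (others 0.0412 to 0.0426). Among the loss embryos they were Hoxb9 at 78.4 CPM in replicate 1 (others 89.1 to 91), Cdkn1c at 304 in replicate 1 (others 336 to 340), Tbx4 at 3.98 in replicate 1 (others 6.14 to 6.52), Hoxd10 at 11 in replicate 3 (others 7.63 to 8.16), Pcgf2 at 80.4 in replicate 4 (others 83.9 to 84.4), Sfrp2 at 112 in replicate 4 (others 105 to 106) and Tfrc at 279 in replicate 4 (others 260 to 262).

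The contrast of the extremes differed between the sexes in 1 of 15272 genes by the edgeR interaction test, the germ cell factor gene Tcfl5, whose log2 difference was -1.22 in females and 0.47 in males (female minus male -1.69, FDR 0.0222), and 854 genes had an unadjusted p under 0.05. In the loss embryos each sex was 1 litter, so that sex and litter cannot be told apart there.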

How the results depend on the processing

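The 1984 called genes became 8 with litter as a block, 1163 with only the 8 embryos of the extremes and 818 at an FDR under 0.01, and ranged from 1249 (without loss replicate 3) to 2123 (without wild-type replicate 4) when 1 embryo was left out. With no surrogate variable 1491 were called, 1445 of them shared. The other alternatives gave 1434 to 2427. The 12 genes that departed from the midpoint became 6 with litter as a block and 6 to 13 without 1 embryo, with 6 without wild-type replicate 3 or 4. The Kat6b difference stayed called in every fit (1.87 to 2.03 without 1 embryo). The graded share of 61.4% was 41.9% with narrower limits, and 65.1% with no surrogate variable. The 44 stepwise genes were 51 to 94 without 1 embryo, since fewer embryos are easier to order. Of the named genes, the litter block reversed Krt15 (0.25), Fos (0.35), Ing5 (-0.06), Hes5 (-0.03) and Tfrc (0.00); the cause was not tested. Replicate numbers did not pair the embryos: same-numbered embryos of the extremes had deviations correlated at -0.0266, 0.174, 0.215 and -0.122, and the replicate block called 1807 genes. Depth limits the lowest genes, such as Cyct, Ms4a6c, Scg2 and Hoxd3os1.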
